A study of Homo sapiens with 6 samples.

Results

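A set of 42 genes of glycolysis and of the cellular response to low oxygen was examined in OVCAR-3 cells, an established human ovarian cancer line, after knockdown of COX-1. The genes were chosen by symbol: 26 encode sugar and lactate transporters, glycolytic enzymes and the enzymes that steer the pathway, and 16 encode subunits of the hypoxia-inducible factors (HIF), the hydroxylases that control them, and other HIF targets. Of the 42 symbols, 40 matched a row of the table of 34811 genes as written, and PKM2 matched through its current symbol PKM. CA9, a membrane carbonic anhydrase, was not analysed here. All 41 remaining genes were among the 17309 that passed the filter on low counts.

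RNA-seq libraries came from OV3/COX1KD cells, which carry a plasmid shRNA against COX-1, and from OV3/SCR cells, which carry a scrambled shRNA on the same vector. Both are stable puromycin-selected OVCAR-3 clones, grown in RPMI-1640 with fetal bovine serum without any other treatment and harvested in growing phase. There were 3 libraries per condition from independent passages, all of OV3/COX1KD clone #2 and OV3/SCR clone #1. The test therefore measured the spread between passages, and the knockdown and a difference between clones cannot be told apart.

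Glycolysis turns glucose into pyruvate in the cytosol, and cells that cannot or do not oxidize the pyruvate reduce it to lactate and export it. HIF is a pair of an alpha subunit, which prolyl hydroxylases mark for destruction while oxygen is present, and the stable beta subunit ARNT. At low oxygen the alpha subunit accumulates, and the pair binds short DNA motifs and raises transcription of glucose transporters, most glycolytic enzymes, lactate dehydrogenase A, and genes that handle acid, mitochondria and collagen. Tumor cells often keep glycolysis high even with oxygen present.

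The members moved apart rather than together. In OV3/COX1KD cells 15 of the 41 genes were higher and 12 were lower at an edgeR FDR under 0.01, where 25.8% and 22.1% of all tested genes were called in these directions and 47.9% in either, and 14 had no call. The median log2 fold change of the members (OV3/COX1KD over OV3/SCR) was -0.016, beside -0.0087 over all tested genes. Among the called members, only ALDOC and NDRG1 rose by more than 0.5 on the log2 scale, and PFKFB3, PKM, EGLN3 and CA12 fell by more than that, beside 9.87% and 10.0% of all tested genes. After scaling, all 3 OV3/COX1KD libraries lay above all 3 OV3/SCR libraries for 17 members and below them for 16, beside 32.5% and 30.7% of all tested genes. The members are abundant, and small changes are called more readily at high counts: among the 8197 genes at or above the members' lower quartile of expression 37.5% were called higher and 26.6% lower, and of the 31 members in that range 14 were higher and 8 lower.

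The glycolysis members and the HIF members each split in both directions. Among the 26 glycolysis members 10 were higher and 7 lower (median log2 fold change 0.021). Among the 15 HIF and target members 5 were higher and 5 lower (median -0.067). The direction of small changes depended on the scaling of the libraries. With scaling by total counts in place of TMM (edgeR's trimmed mean of M values), 8 members were higher and 16 lower, so that higher genes were 33.33% of the members' calls against 55.56% with TMM, and 41.09% against 53.94% over all genes. The 8 members higher under both scalings were PFKM, ALDOC, LDHB, PDK1, SLC16A3, ARNT, BNIP3L and NDRG1.

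**Figure D1:**
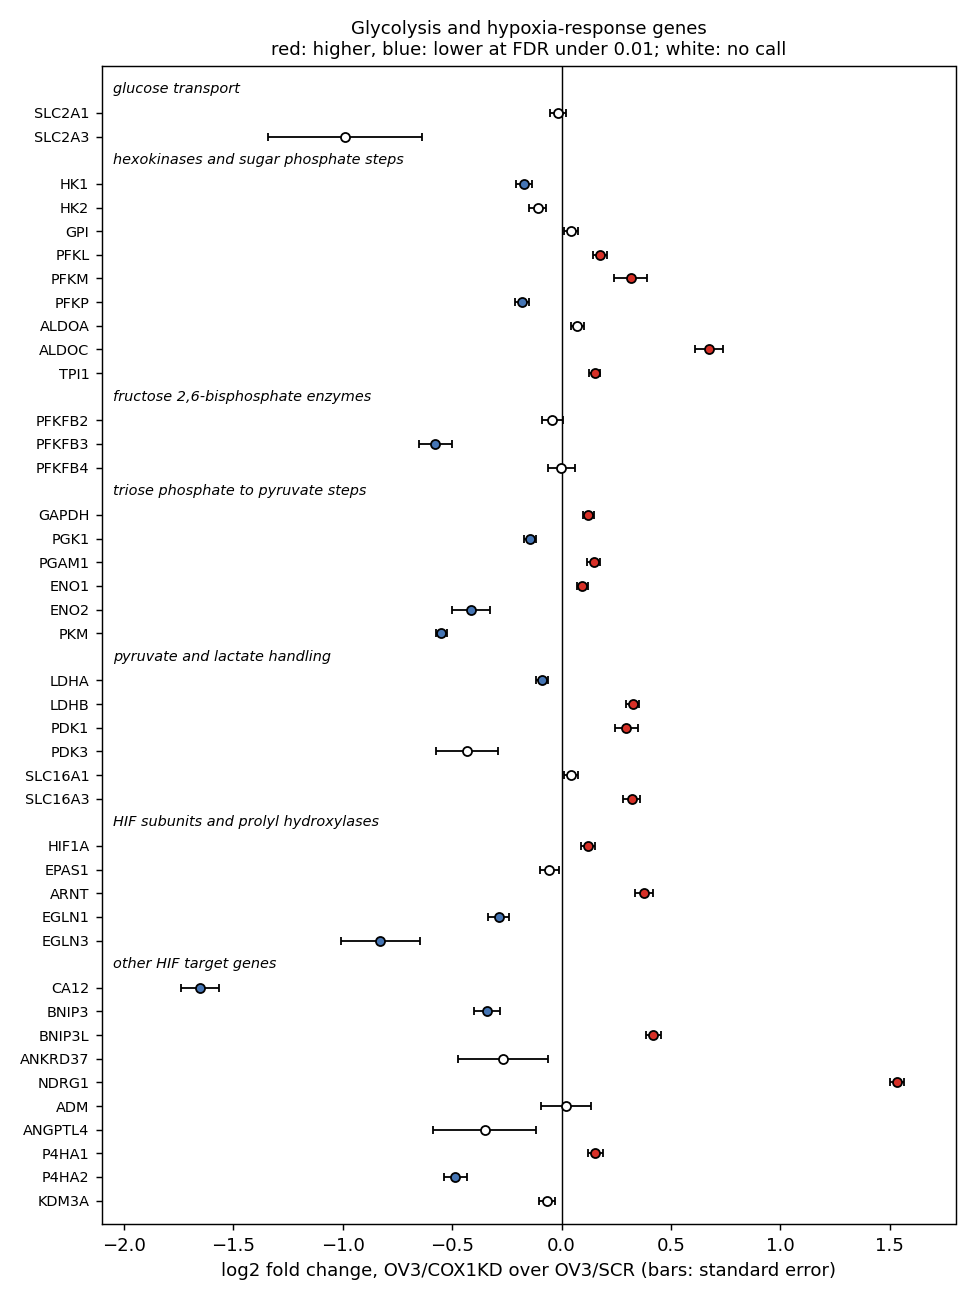
Log2 fold change of the 41 members on the horizontal axis (OV3/COX1KD over OV3/SCR, TMM scaling), grouped by role, with bars of 1 standard error and 3 libraries per condition. Filled points passed an edgeR FDR of 0.01, 15 to the right of 0 and 12 to the left, and every role group with a call except the fructose 2,6-bisphosphate enzymes holds points on both sides.

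The libraries held between 25291505 and 27391538 counted reads. PTGS1, the gene for COX-1, was lower in every OV3/COX1KD library, with 713, 658 and 641 counts in OV3/SCR and 456, 486 and 501 in OV3/COX1KD (log2 fold change -0.45, standard error 0.057, edgeR FDR = 1.3e-06). Libraries of 1 condition differed from each other by 1.74 to 5.74 chi-square units per degree of freedom, with the highest values in the 2 pairs that hold OV3/COX1KD replicate 2, and libraries of different conditions by 40.3 to 53.3. All 10 ovarian carcinoma markers were detected, with a summed level of 5760 to 5830 CPM (TMM-scaled counts at a common library size) in OV3/SCR and 7490 to 7690 in OV3/COX1KD, and 8 of them were higher and 2, PAX8 and KRT7, lower. Fibroblast markers summed to 10.9 to 11.6 CPM in OV3/SCR and 6.71 to 7.42 in OV3/COX1KD. This sum was mostly COL1A1, at a mean of 10.1 CPM in OV3/SCR and 5.92 in OV3/COX1KD. Every other fibroblast marker had a mean of at most 0.649 CPM. Leukocyte markers summed to at most 1.65 CPM. Endothelial markers summed to 2.91 to 4.05 CPM in OV3/SCR and 3.91 to 4.72 in OV3/COX1KD. None of the 15 was at 0 in all libraries, and the part of these shifts in the results was not tested. In bulk RNA a lower value can come from fewer cells that express a gene or from less RNA per cell, and these cannot be told apart.

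The core of the DNA motif that HIF binds, ACGTG or GCGTG, was looked for on both strands in the 250 bases before each RefSeq gene start (GRCh38.p14), a property that was not used to choose the genes. CACGTG reads as ACGTG on both strands. Windows were found for 36 members. At least 1 of the 2 motifs occurred in 29 of these 36 members (80.56%), beside 47.41% of all 27305 genes with a window, and ACGTG occurred in 55.56%, beside 21.74%. The members have more windows per gene, which raises a share per gene. Both motifs hold CG, and the genes set beside the members were not matched to them in expression or base composition. Per window, at least 1 motif occurred in 59.38% of the members' 64 windows, beside 43.21% of all 35116 windows, ACGTG in 35.94%, beside 18.51%, and GCGTG in 34.38%, beside 32.22%. The share per gene did not separate the members by direction: it was 10 of 13 among the higher members, 9 of 12 among the lower ones and 10 of 11 among those without a call. Per window it was 46.15% for the higher members, 52.17% for the lower ones and 93.33% for those without a call. By windows the called members were nearer to the 43.21% of all windows than the members without a call. These shares rest on 26, 23 and 15 windows, and 1 gene can hold several. Counted by gene, each group lay above the 47.41% of all genes. The 3 stretches below belong to a member that rose (ALDOC) and to 2 that fell (CA12 and BNIP3), are written 5′ to 3′ on the strand of the gene, cover the bases from 250 to 61 before the start, and carry each motif match in capitals. They lie at chr17:28576956-28577145, chr15:63381907-63382096 and chr10:131981984-131982173, all on the minus strand.
ALDOC: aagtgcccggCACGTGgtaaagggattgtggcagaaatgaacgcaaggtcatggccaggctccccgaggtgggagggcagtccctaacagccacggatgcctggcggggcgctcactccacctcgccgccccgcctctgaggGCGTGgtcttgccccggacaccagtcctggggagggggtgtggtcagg
CA12: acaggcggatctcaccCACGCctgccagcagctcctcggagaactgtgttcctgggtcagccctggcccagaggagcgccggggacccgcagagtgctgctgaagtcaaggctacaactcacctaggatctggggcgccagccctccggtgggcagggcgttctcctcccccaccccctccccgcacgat
BNIP3: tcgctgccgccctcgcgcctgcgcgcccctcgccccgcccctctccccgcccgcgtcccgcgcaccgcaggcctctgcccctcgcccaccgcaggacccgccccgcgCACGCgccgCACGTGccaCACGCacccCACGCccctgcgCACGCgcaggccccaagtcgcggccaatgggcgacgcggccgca
ALDOC and BNIP3 each had 1 CACGTG in the stretch and moved in opposite directions, while CA12 had a single GCGTG match, read on the other strand as CACGC. Over all 250 bases ALDOC had 3 ACGTG and 2 GCGTG matches, against 2 and 1 in the stretch, so some are not printed. BNIP3 had 2 and 4 in both. PKM and LDHB, the glycolysis members with the lowest and the second lowest FDR, had neither motif in their 250 bases. A match describes letters in these windows and is not evidence of binding.

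Of the 2 glucose transporters among the members, nearly all message came from SLC2A1, which had no call. Outside the members, SLC2A12 of the same family had a mean of 86.8 CPM in OV3/SCR, beside 76.7 for SLC2A1, and no call. SLC2A1, which encodes the widespread glucose transporter GLUT1, had 78.2, 74.5 and 77.4 CPM in OV3/SCR and 75.8, 75.3 and 76.5 in OV3/COX1KD libraries, and the conditions overlapped (log2 fold change -0.016, standard error 0.036, edgeR FDR = 0.724). SLC2A3, which encodes the high-affinity transporter GLUT3, was scarce, with 12, 17 and 16 counts in OV3/SCR and 8, 7 and 7 in OV3/COX1KD. Its OV3/COX1KD libraries were all lower, but the change did not pass the threshold (log2 fold change -0.99, standard error 0.35, edgeR FDR = 0.0216). Per kilobase of exon, SLC2A3 stood at 0.0790 CPM in OV3/SCR beside 11.6 for SLC2A1.

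The member isozymes of the early kinase steps did not change as a group. The hexokinases HK1 and HK2 trap glucose in the cell as glucose 6-phosphate. HK1 fell from 93.8 ± 3.69 to 83.4 ± 0.911 CPM (SD, n = 3, log2 fold change -0.17, edgeR FDR = 5.4e-04). HK2, the hypoxia-inducible hexokinase, had 106.4, 107.6 and 109.9 CPM in OV3/SCR and 101.1, 93.4 and 105.6 in OV3/COX1KD and did not pass the threshold (log2 fold change -0.11, edgeR FDR = 0.0248), although it did with total count scaling and without OV3/COX1KD replicate 3. Without OV3/COX1KD replicate 2 its log2 fold change was -0.056 (FDR = 0.143). The summed level of HK1 and HK2 in OV3/COX1KD was 0.909 times that in OV3/SCR. This sum leaves out HKDC1, a hexokinase-like gene outside the members, which fell from a mean of 47.5 to 31.2 CPM. GPI, the isomerase that follows, had overlapping libraries between 603 and 659.5 CPM.

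Phosphofructokinase, the main control point of glycolysis, is a tetramer of subunits from 3 genes. The liver-type subunit PFKL, the most abundant of the 3, had 197, 207 and 195 CPM in OV3/SCR and 231, 227 and 219.7 in OV3/COX1KD and rose (log2 fold change 0.18, standard error 0.032, edgeR FDR = 1.0e-04), a call that was lost with total count scaling (FDR = 0.0122). The platelet-type subunit PFKP had 120.2, 121 and 122 CPM in OV3/SCR and 106, 107 and 109 in OV3/COX1KD and fell (log2 fold change -0.18, standard error 0.032, edgeR FDR = 7.8e-05). Neither set of libraries overlapped. The muscle-type subunit PFKM, at a low level, rose from 13.4 ± 0.471 to 16.7 ± 1.59 CPM (SD, n = 3, log2 fold change 0.32, edgeR FDR = 0.00121). Per exon length the ratio of PFKP to PFKL was 0.697 in OV3/SCR and 0.545 in OV3/COX1KD, and the summed level of the 3 genes was 1.045 times that of OV3/SCR.

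The kinase-phosphatases of the PFKFB family make and break fructose 2,6-bisphosphate, the strongest activator of phosphofructokinase. PFKFB3, the family member with the highest kinase activity, had 18.3, 21.6 and 20.9 CPM in OV3/SCR and 14.2, 12.6 and 13.9 in OV3/COX1KD. It fell in every library (log2 fold change -0.58, standard error 0.074, edgeR FDR = 1.4e-06). PFKFB2 and PFKFB4 had overlapping libraries, with log2 fold changes of -0.042 (edgeR FDR = 0.455) and -0.00054 (edgeR FDR = 0.995), and the direction of PFKFB2 turned without OV3/COX1KD replicate 2. The ratio of PFKFB3 to PFKFB2 per exon length lay between 0.656 and 0.769 in OV3/SCR and between 0.485 and 0.523 in OV3/COX1KD, without overlap.

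Aldolase splits the 6-carbon sugar phosphate, and triose phosphate isomerase balances its products. ALDOA, which supplies most aldolase message, had 1092 to 1159 CPM in OV3/SCR and 1162 to 1209 in OV3/COX1KD and did not pass the threshold (log2 fold change 0.071, edgeR FDR = 0.0430). Its direction turned with total count scaling. ALDOC, the aldolase of brain and a HIF target, had 16.7, 18.9 and 16.0 CPM in OV3/SCR and 26.4, 28.2 and 27.7 in OV3/COX1KD. This was the largest rise among the glycolysis members (log2 fold change 0.67, standard error 0.064, edgeR FDR = 2.3e-08). ALDOC remained a minor part of the step, with a ratio to ALDOA per exon length of 0.0223 in OV3/SCR and 0.0340 in OV3/COX1KD. TPI1 rose from 560 ± 1.72 to 621 ± 3.06 CPM (SD, n = 3, log2 fold change 0.15, edgeR FDR = 7.0e-05), but not with total count scaling (FDR = 0.0283).

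The second phase of glycolysis runs from glyceraldehyde 3-phosphate to pyruvate and yields the ATP of the pathway at the steps of PGK1 and pyruvate kinase. The genes of these ATP-yielding steps were lower in OV3/COX1KD cells, and GAPDH, PGAM1 and ENO1, which encode the dehydrogenase, mutase and enolase of the same phase, were higher. PKM, pyruvate kinase of most tissues and tumors (ENSG00000067225, GRCh37 chromosome 15, 72491370 to 72524160), had 3628, 3728 and 3649.5 CPM in OV3/SCR and 2535, 2486 and 2495 in OV3/COX1KD. The spread within each condition was small beside the gap, and PKM was 1.46-fold lower (log2 fold change -0.55, standard error 0.026, edgeR FDR = 6.2e-13), from -0.63 to -0.53 over all settings tried. These counts sum over the transcripts of the gene, so the PKM1 and PKM2 splice forms were not told apart. PGK1, phosphoglycerate kinase (ENSG00000102144, GRCh37 chromosome X, 77166236 to 77384792), had 696, 687 and 694 CPM in OV3/SCR and 629, 611 and 637 in OV3/COX1KD, a smaller fall without overlap (log2 fold change -0.15, standard error 0.028, edgeR FDR = 1.5e-04).

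GAPDH, which also served as the internal standard of the study's QPCR, had 1945, 1950 and 1948 CPM in OV3/SCR and 2136, 2107 and 2114 in OV3/COX1KD (log2 fold change 0.12, standard error 0.025, edgeR FDR = 3.9e-04). PGAM1 rose from 195 ± 0.701 to 216 ± 2.42 CPM (SD, n = 3, log2 fold change 0.15, edgeR FDR = 2.1e-04). ENO1, the member with the highest mean CPM in both conditions, had 3700.0, 3726 and 3732.5 CPM in OV3/SCR and 4013, 3907.5 and 3989 in OV3/COX1KD (log2 fold change 0.094, standard error 0.025, edgeR FDR = 0.00343). Per exon length GAPDH stood higher. The fitted levels in OV3/COX1KD were 1.09, 1.11 and 1.07 times those in OV3/SCR for GAPDH, PGAM1 and ENO1, and these calls rested on the scaling: with total counts the FDR was 0.158 for GAPDH, 0.0488 for PGAM1 and 0.607 for ENO1. The call of ENO1 was also lost on leaving out replicate 1 or 3 of either condition (FDR = 0.0120 to 0.0232) and with the filter of 10 counts in each library (FDR = 0.0206). ENO2, the neuronal enolase and a HIF target at a low level, fell from 10.7 ± 0.754 to 8.05 ± 0.559 CPM (SD, n = 3, log2 fold change -0.41, edgeR FDR = 4.2e-04), and the ratio of ENO2 to ENO1 per exon length was 0.00351 in OV3/SCR and 0.00247 in OV3/COX1KD.

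Added up, PGK1 and PKM went from 4361 ± 48.0 CPM in OV3/SCR to 3131 ± 34.1 in OV3/COX1KD (SD, n = 3), a ratio of 0.718. GAPDH, PGAM1 and ENO1 went from 5862 ± 19.9 to 6305 ± 68.6 CPM, a ratio of 1.076. These sums were formed after the single values were seen and have no test. The 17 enzymes of the glycolytic steps with lactate dehydrogenase held 1.558% to 1.568% of OV3/SCR counts and 1.417% to 1.434% of OV3/COX1KD counts. This share does not depend on TMM, and its fall lay mostly with PKM. PGK1 and PKM held 0.4445% to 0.4517% of counts in OV3/SCR and 0.3024% to 0.3069% in OV3/COX1KD. GAPDH, PGAM1 and ENO1 held 0.6005% to 0.6045% and 0.6084% to 0.6171%. The lower total therefore does not describe the 17 enzymes as a group. In the order of all 16800 tested genes with a known exon length, by level per length, PKM went from rank 46 to 80 and ENO1 from 31 to 28.

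**Figure D2:**
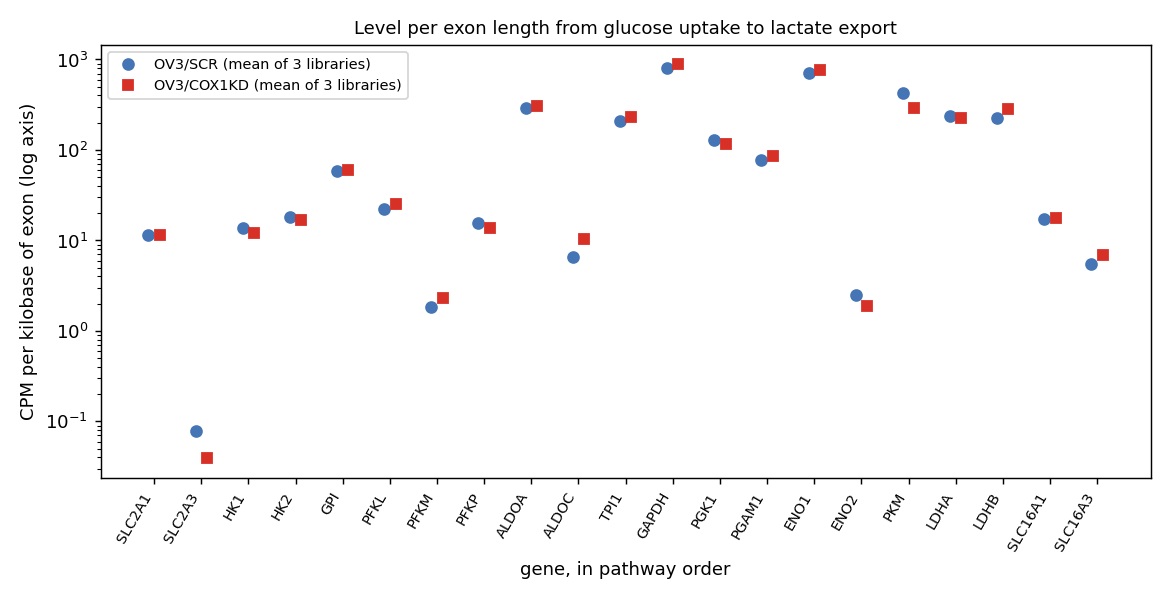
Mean level of 3 libraries per condition, in CPM per kilobase of exon on a log axis, for the transporters and enzymes in the order of the pathway from glucose uptake to lactate export. GAPDH and ENO1 stand highest, PKM is the abundant enzyme with a visible gap between conditions (428 in OV3/SCR and 292 in OV3/COX1KD), and SLC2A3 is the lowest.

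Of the lactate dehydrogenase chains, B was higher in OV3/COX1KD cells and A marginally lower. LDHA, the HIF-induced chain that favours lactate formation, had 1419, 1442 and 1436 CPM in OV3/SCR and 1360.4, 1319 and 1360.1 in OV3/COX1KD. The libraries did not overlap, but the call was marginal (log2 fold change -0.089, standard error 0.027, edgeR FDR = 0.00748): it was lost when any 1 of the 6 libraries was left out (FDR = 0.0132 to 0.0452), with no filter on low counts (0.0637) and with the replicate number as a block (0.0106). LDHB, the chain of tissues that burn lactate (ENSG00000111716, GRCh37 chromosome 12, 21788276 to 21910791), had 690.4, 668 and 685 CPM in OV3/SCR and 839.8, 853 and 865 in OV3/COX1KD. LDHB rose in every library and under every setting (log2 fold change 0.32, standard error 0.028, edgeR FDR = 5.0e-09). The ratio of LDHA to LDHB per exon length was 1.02, 1.07 and 1.04 in OV3/SCR and 0.802, 0.765 and 0.779 in OV3/COX1KD. By this measure the 2 chains stood about level in OV3/SCR. The measure rests on the exon lengths taken, 6026 bases for LDHA and 2983 for LDHB. Without them LDHA stood higher in OV3/SCR, at a mean of 1432 CPM beside 681 for LDHB. The ratio, which does not depend on the scaling of the libraries, differed by -0.41 on the log2 scale.

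Export and mitochondrial use of the end products were examined with the lactate transporters and the pyruvate dehydrogenase kinases. SLC16A3, the HIF-induced lactate exporter MCT4, had 51.3, 49.8 and 51.8 CPM in OV3/SCR and 62.5, 63.2 and 65.3 in OV3/COX1KD and rose (log2 fold change 0.32, standard error 0.039, edgeR FDR = 7.5e-07). SLC16A1, the widespread transporter MCT1, had no call (log2 fold change 0.043, edgeR FDR = 0.258) and its direction turned with total count scaling. PDK1, the HIF-induced kinase that shuts pyruvate dehydrogenase, rose from 25.5 ± 0.922 to 31.3 ± 0.798 CPM (SD, n = 3, log2 fold change 0.30, edgeR FDR = 5.3e-05). PDK3, another kinase of the complex, had 135, 143 and 135 counts in OV3/SCR and 125, 82 and 92 in OV3/COX1KD and missed the threshold (log2 fold change -0.43, standard error 0.14, edgeR FDR = 0.0126). It passed without OV3/COX1KD replicate 1 (log2 fold change -0.64, FDR = 4.7e-04), with total count scaling and with no filter.

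**Figure D3:**
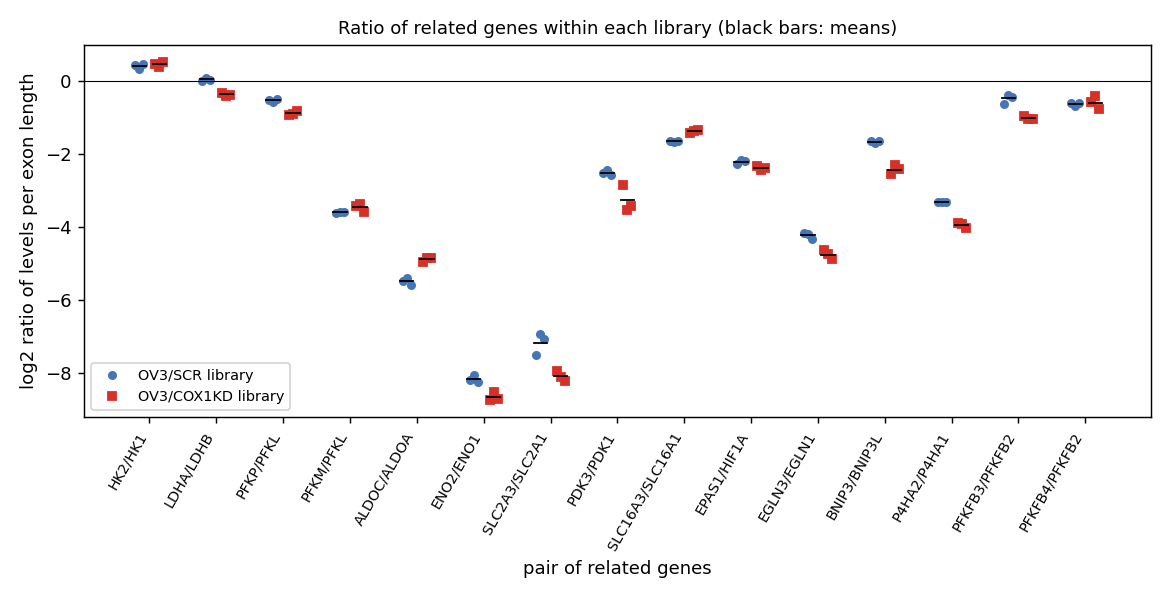
Log2 ratio of the levels per exon length of related genes within each library, for 15 pairs, with the mean of each condition as a black bar. The conditions do not overlap in 13 pairs, with LDHA/LDHB falling from just above 0 to below it, and overlap in HK2/HK1 and PFKFB4/PFKFB2. PFKM/PFKL is barely separated, with a ratio of 0.08341 in OV3/SCR replicate 3 and 0.08352 in OV3/COX1KD replicate 3. The share of other gene pairs that separate was not computed. Of all tested single genes, 32.5% lay above and 30.7% below in every OV3/COX1KD library.

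The ratio of related members was compared for 15 pairs with an exact two-sided permutation test over the 6 libraries, in which 0.1 is the smallest p that 3 against 3 libraries can give. This smallest p was reached by 13 pairs, 0.115 after Benjamini-Hochberg adjustment over the 15, so no pair could pass 0.05. How often other gene pairs reach it was not computed. HK2 to HK1 (1.34 in OV3/SCR and 1.39 in OV3/COX1KD, exact permutation p = 0.4) and PFKFB4 to PFKFB2 (0.649 and 0.669, exact permutation p = 0.7) overlapped. On the log2 scale the widest differences in ratio were SLC2A3 to SLC2A1 (-0.92), BNIP3 to BNIP3L (-0.76), PDK3 to PDK1 (-0.75) and P4HA2 to P4HA1 (-0.64).

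The oxygen-sensing members also changed in both directions. HIF1A, the alpha subunit controlled chiefly through its protein, had 195.7, 188 and 189.9 CPM in OV3/SCR and 210.2, 203 and 211 in OV3/COX1KD (log2 fold change 0.12, standard error 0.031, edgeR FDR = 0.00224). This small rise was lost with total count scaling (FDR = 0.241) and on leaving out replicate 2 or 3 of OV3/SCR, or replicate 1 or 3 of OV3/COX1KD (FDR = 0.0127 to 0.0170). EPAS1, the alpha subunit HIF-2 alpha, had overlapping libraries (log2 fold change -0.057, edgeR FDR = 0.271). ARNT, the shared beta subunit, had 46.8, 45.7 and 47.3 CPM in OV3/SCR and 62.0, 57.7 and 61.8 in OV3/COX1KD and rose under every setting (log2 fold change 0.38, standard error 0.042, edgeR FDR = 2.1e-07).

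Both prolyl hydroxylases among the members fell. EGLN1, the main oxygen sensor of HIF, had 32.0, 31.4 and 30.7 CPM in OV3/SCR and 25.6, 25.4 and 26.2 in OV3/COX1KD (log2 fold change -0.29, standard error 0.049, edgeR FDR = 4.9e-05). EGLN3, an inducible hydroxylase that is itself a HIF target, had 65, 61 and 54 counts in OV3/SCR and 35, 32 and 32 in OV3/COX1KD (log2 fold change -0.83, standard error 0.18, edgeR FDR = 6.1e-04). Neither overlapped between conditions, and EGLN3 was scarce, at 0.0535 of the level of EGLN1 per exon length in OV3/SCR.

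The other HIF targets held the widest changes of the set, in opposite directions. CA12, a membrane carbonic anhydrase that handles acid outside the cell (ENSG00000074410, GRCh37 chromosome 15, 63613577 to 63674045), had 384, 405 and 364 counts in OV3/SCR and 112, 118 and 129 in OV3/COX1KD. It was 3.14-fold lower (log2 fold change -1.65, standard error 0.087, edgeR FDR = 3.6e-12), and 225 of the 17309 tested genes fell at least as far, CA12 included. NDRG1, a stress- and HIF-responsive gene that also marks differentiated epithelium (ENSG00000104419, GRCh37 chromosome 8, 134249418 to 134314265), had 2945, 2836 and 2846 counts in OV3/SCR and 8168, 7743 and 8500 in OV3/COX1KD. It was 2.89-fold higher (log2 fold change 1.53, standard error 0.031, edgeR FDR = 3.9e-18), and 182 tested genes rose at least as far, NDRG1 included. Only 3 other tested genes whose mean log2 CPM reached 1 lay within 2 Mb of NDRG1, and all 3 were higher, with a median log2 fold change of 0.30. Within 2 Mb of CA12 there were 31, with a median of 0.12, and around PKM 21, with a median of 0.13. Some other called members also lay among genes shifted in their own direction. Around PFKP 4 of 5 such genes were lower (median -0.53). Around ENO1 15 of 25 were higher and 3 lower (0.22), and around HIF1A 9 of 15 were higher and 0 lower (0.20). PGK1 fell although 4 of its 7 were higher and 0 lower. The part of regional shifts in these calls was not tested.

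BNIP3 and BNIP3L, related mitophagy receptors that HIF induces, moved apart. BNIP3 had 748, 719 and 729 counts in OV3/SCR and 507, 580 and 610 in OV3/COX1KD (log2 fold change -0.34, standard error 0.058, edgeR FDR = 4.8e-05). The value of BNIP3 is uncertain, because the row of a near-identical pseudogene held counts equal to 26.2% of those of BNIP3. BNIP3L had 88.3, 91.7 and 90.3 CPM in OV3/SCR and 119, 117 and 125 in OV3/COX1KD and rose (log2 fold change 0.42, standard error 0.035, edgeR FDR = 4.3e-09). Their ratio per exon length was 0.318 in OV3/SCR and 0.187 in OV3/COX1KD.

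The collagen prolyl hydroxylase subunits, which shape collagen under low oxygen, split as well. P4HA1 rose from 99.9 ± 2.60 to 111 ± 2.28 CPM (SD, n = 3, log2 fold change 0.15, edgeR FDR = 7.7e-04), a call lost with total count scaling (FDR = 0.0695). P4HA2 had 33.2, 32.2 and 34.0 CPM in OV3/SCR and 24.5, 23.8 and 22.8 in OV3/COX1KD and fell (log2 fold change -0.48, standard error 0.051, edgeR FDR = 1.1e-07).

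The remaining 4 targets had no call. ADM, which encodes the vasodilator peptide adrenomedullin, had 4.83 to 6.06 CPM in OV3/SCR and 5.02 to 5.63 in OV3/COX1KD, and the sign of its log2 fold change of 0.021 turned under 5 settings. ANGPTL4, a secreted inhibitor of lipoprotein lipase, had 30, 41 and 40 counts in OV3/SCR and 29, 34 and 22 in OV3/COX1KD (edgeR FDR = 0.211). ANKRD37, a strongly HIF-induced gene of little known function, had 62, 62 and 36 counts in OV3/SCR and 40, 40 and 50 in OV3/COX1KD (edgeR FDR = 0.280), and 40.3% of its exon length is covered on the opposite strand by UFSP2, from which reads cannot be told apart without strand. KDM3A, a histone demethylase induced by HIF, had lower values in all OV3/COX1KD libraries without passing the threshold (log2 fold change -0.067, edgeR FDR = 0.122). It passed with total count scaling (FDR = 0.00229), as did EPAS1 (FDR = 0.00995).

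**Figure D4:**
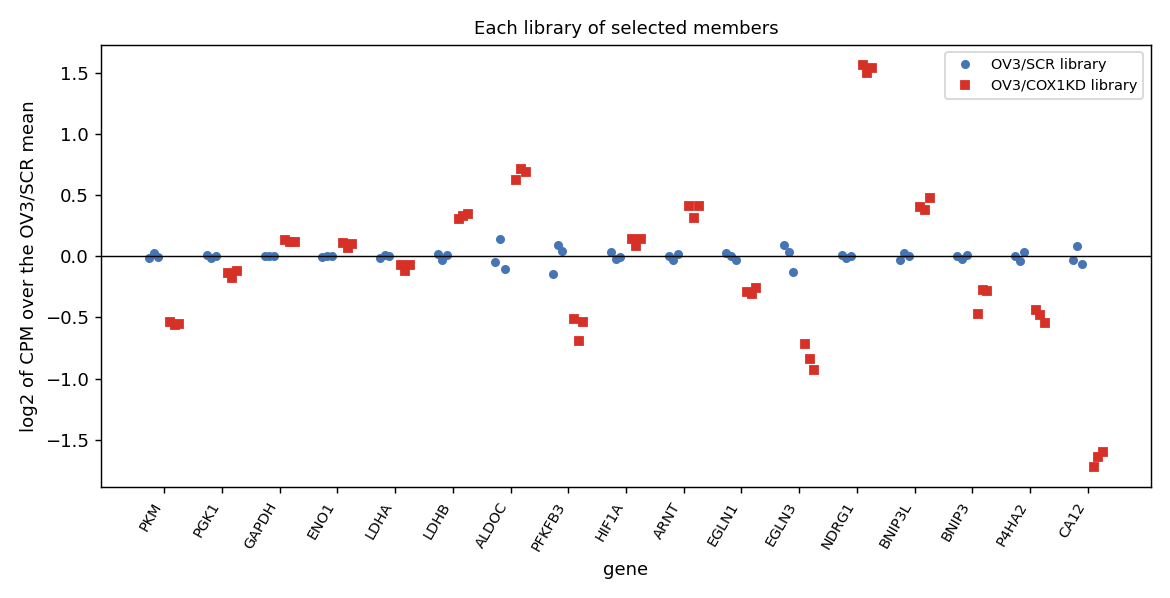
Each library's level of 17 members as the log2 of its CPM over the OV3/SCR mean, with blue circles for OV3/SCR and red squares for OV3/COX1KD. NDRG1 lies near 1.53 above and CA12 near 1.65 below the control mean, PKM lies tightly below it, and the shifts of GAPDH, ENO1, LDHA and HIF1A are within about 0.2 of 0.

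Further genes of the same pathways were followed with lists chosen by function. Of 6 tested glycolytic isozymes outside the members 1 was higher and 3 lower, and of 11 sugar and monocarboxylate transporters 3 were higher and 4 lower. Over all tested genes 25.8% were called higher and 22.1% lower. HKDC1, a hexokinase-like gene, fell from 47.5 ± 1.43 to 31.2 ± 1.81 CPM (SD, n = 3, log2 fold change -0.61, edgeR FDR = 2.5e-09), and the muscle enolase ENO3 and the phosphoglucomutase-like PGM2 by 0.54 and 0.53 on the log2 scale. SLC2A10, the transporter GLUT10, had 117, 112 and 131 counts in OV3/SCR and 309, 256 and 307 in OV3/COX1KD and rose (log2 fold change 1.31, edgeR FDR = 1.3e-09). SLC2A6 and SLC2A9, of the same transporter family, fell by 0.73 and 0.56.

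The routes that branch from glycolysis were read beside the 25.8% of all tested genes called higher and the 22.1% called lower, and lists this small allow no statement about a route as a whole. Of 7 tested genes of the pentose phosphate pathway 4 were higher and 2 lower, and the median log2 fold change was 0.23. Of 11 genes of pyruvate dehydrogenase and mitochondrial pyruvate entry 5 were higher and 1 lower, with a median of 0.21. The lower one was PDHA1, the catalytic subunit that the PDK kinases phosphorylate, with 1457, 1431 and 1481 counts in OV3/SCR and 831, 887 and 865 in OV3/COX1KD (log2 fold change -0.73, edgeR FDR = 5.3e-11). MAP3K15 covers 19.3% of the exon length of PDHA1 on the opposite strand. Of 4 tested gluconeogenesis genes 3 were higher and none lower.

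Genes around HIF and its induced program were called in both directions, beside 25.8% of all tested genes called higher and 22.1% called lower. Of 11 tested genes for HIF degradation and co-activation 4 were higher and 4 lower (median log2 fold change -0.050). Of 27 further hypoxia-induced genes 10 were higher and 8 lower, with a median of 0.058, and ERO1L, IGFBP3 and BHLHE40 fell by more than 0.5 on the log2 scale. ERO1L, the oxidase that forms disulfide bonds in the endoplasmic reticulum, had 3434, 3359 and 3442 counts in OV3/SCR and 1553, 1607 and 1712 in OV3/COX1KD (log2 fold change -1.04, edgeR FDR = 4.4e-15). IGFBP3, a carrier of insulin-like growth factors, fell by 0.89 on the log2 scale and BHLHE40, a hypoxia-induced transcriptional repressor, by 0.77.

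**Figure D5:**
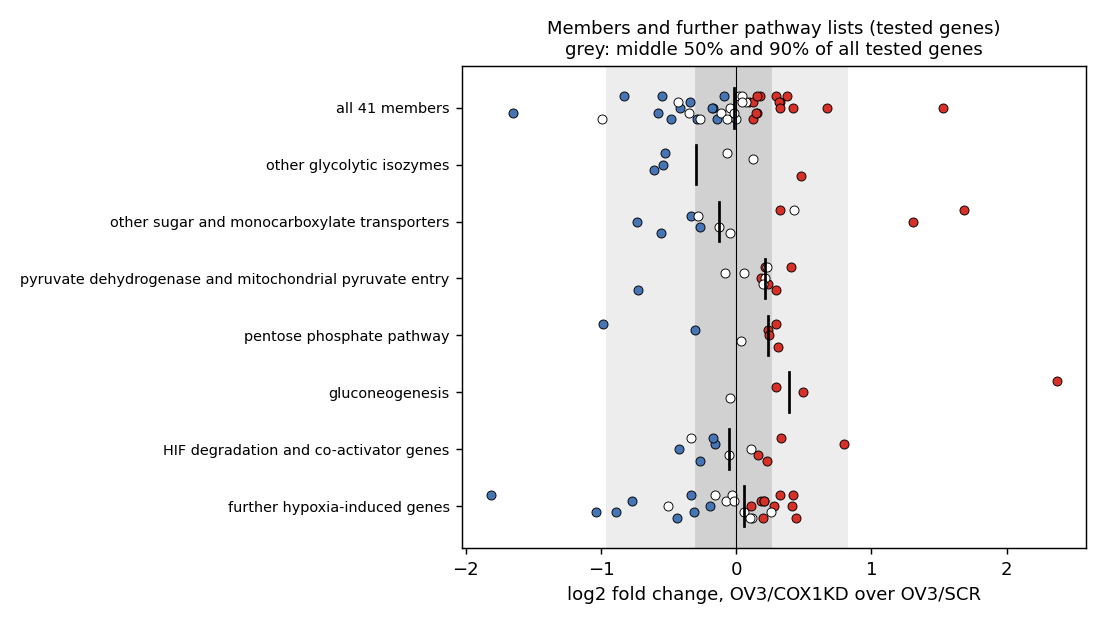
Log2 fold change (OV3/COX1KD over OV3/SCR) of the tested genes of the members and of the 7 further lists, 1 point per gene, red for higher and blue for lower at an edgeR FDR under 0.01 and white for no call, with the list median as a black bar. The bands hold the middle 50% (dark) and 90% (light) of all 17309 tested genes, and the median of the 41 members lies at -0.016 with members on both sides.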

How the data were processed

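RNA-seq was performed on 3 OV3/SCR and 3 OV3/COX1KD libraries (Illumina TruSeq RNA kit, which does not mark strand). Raw counts per gene were deposited, which the authors made with TopHat2 (version 2.0 in the submitters' processing notes) on hg19 and with HTSeq. The gene annotation and strand setting are not given in the sources used here. The deposited counts were tested with edgeR 4.0.16 in R 4.3.3: TMM scaling, filterByExpr, glmQLFit and glmQLFTest over all 17309 kept genes with condition as the only factor, Benjamini-Hochberg adjustment, and calls at an FDR under 0.01. The standard error was the log2 fold change divided by the square root of F. CPM are TMM-scaled counts at a common library size, and levels per length use the exon length in GENCODE 44 lifted to GRCh37 (33556 of 34811 genes).

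Members and lists were chosen with earlier results of these data known. All members and PTGS1 are named. From the further lists, genes called at a mean log2 CPM of 1 or more and a log2 fold change beyond 0.5 are named, at most 4 a list, and some genes of these lists are not reported here. Genes within 2 Mb and summed levels were examined after the data were seen.

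Library totals were 25291505 to 27391538 counts. The level of 3 counts, the smallest taken as detectable, was 0.112 to 0.120 CPM, which covers counting error only. The common dispersion was 0.00103. On simulated data for this comparison (17309 genes), edgeR recovered 61 of 65 abundant genes given a log2 change of 0.5 and 79 of 79 given 1.5. Of scarce genes (mean log2 CPM under 1) it recovered 1 of 32 and 17 of 24, and it called 7 of 17109 unchanged genes. Only 200 genes were changed in the simulation, while 47.9% of all tested genes were called in the data, so these rates may not carry over. Alternatives were RLE size factors, total counts, no filter, a filter of 10 counts in each library, DESeq2 1.42.0 (no prior, and normal prior), a replicate block, and leaving out each library.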

Additional observations from a re-analysis of the deposited data

How the results depend on the processing

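Under the alternatives 235 summary values kept their direction or stayed within 1.5 times the main count, and 2 did not. These were the members called higher with total count scaling (8 in place of 15) and the PFKFB4 to PFKFB2 log2 ratio difference (0.044), which ranged from -0.039, without OV3/COX1KD replicate 2, to 0.13 over the libraries left out. Total counts moved the median log2 fold change of all genes by -0.0775. Leaving out each library in turn gave 13 to 16 members higher and 11 to 12 lower. For single genes 627 values kept direction and side of the threshold, 24 lost a call, 9 gained one and 15 turned sign, all near 0 in genes with no call: with total counts GPI -0.034, ALDOA -0.0061, SLC16A1 -0.034 and ADM -0.057, with no filter SLC2A1 0.0065 and PFKFB4 0.022, and with 1 library left out at some settings SLC2A1 (-0.035 to 0.00065), PFKFB2 (-0.086 to 0.0088), PFKFB4 (-0.033 to 0.045) and ADM (-0.045 to 0.12). The cause was not tested.

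The labels speak of replicate pairs but do not say what a number shares, and the deviations of same-numbered libraries from the mean of their condition correlated across genes with r of 0.0022, 0.0444 and 0.0194, so the numbers were not taken to pair the samples. With the replicate number as a block 15 members were higher and 11 lower, and 4437 genes were higher and 3796 lower, and among the members the call of LDHA was lost. DESeq2 without and with the prior gave 15 members higher and 12 lower. Changes of about 0.5 on the log2 scale in scarce genes, such as ANKRD37 and ANGPTL4, were mostly not detectable at this depth. The ratio of CA12 to CA9 was not run.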

Other observations

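Replicate spread differed among the members. The coefficient of variation between libraries of 1 condition had a median of 2.13% in OV3/SCR, from 0.12% for GAPDH to 27.3% for ANKRD37, and of 2.55% in OV3/COX1KD, from 0.493% for TPI1 to 24.1% for ANGPTL4. GAPDH was thus the steadiest member within the control libraries and differed between conditions by 0.12 on the log2 scale with TMM and by 0.044 with total counts.

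Some genes of the further lists moved far at a low level or fell outside the rule for named genes, and they are given here after their values were seen. FBP1, the gluconeogenic fructose bisphosphatase, rose by 2.37 on the log2 scale (standard error 0.35, edgeR FDR = 9.1e-06). VHL, the ligase subunit that recognizes hydroxylated HIF alpha, rose by 0.33 (standard error 0.040, edgeR FDR = 5.4e-07), and VEGFA, the hypoxia-induced angiogenic factor, fell by 0.31 (standard error 0.037, edgeR FDR = 5.6e-07).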
